A study of Arabidopsis thaliana with 6 samples.

Results

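Long noncoding and antisense transcripts were measured in sqtl1 RNAi seedlings and in Col-0, the standard laboratory accession of Arabidopsis thaliana. The set held the rows that the deposited table places in the classes lnc_RNA, antisense_lncRNA or antisense_RNA and that averaged at least 1 RPKM (reads scaled by transcript length and library size) over the 6 libraries. It took in 221 of 3559 rows of these classes, in a table of 38194 genes. The members were chosen by this mean level and by class, and not by the difference between genotypes.

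The groups were sqtl1 RNAi seedlings in the Col-0 background (3 biological replicates) and wild-type Col-0 seedlings (3 biological replicates), both collected 7 days after stratification. Both were grown in long days on medium with sucrose. RNA interference lowers a transcript without removing its gene. The identifier of the RNAi target, the promoter of the construct, the number of independent lines and the meaning of the name sh1 carried by the RNAi replicates do not appear in the labels, and the knockdown itself was not analysed here. Poly(A) RNA was captured and strand-marked libraries were made, per the labels' protocols. Since whole seedlings were used, fewer cells of a type and less RNA per cell cannot be told apart.

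A long noncoding RNA is a transcript that carries no long reading frame. Many plant long noncoding RNAs are antisense, that is, copied from the strand opposite to a gene, and a few of them, such as those at the floral repressor gene FLC, are known to act on the gene they overlap. Others pair with microRNAs or serve as precursors of small RNAs, and many are short-lived because nuclear exosome and 5' to 3' decay remove them. None of the members carries a symbol of its own in the annotation, so each is given by its locus identifier.

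The member with the highest level, AT3G06355, lies inside a ribosomal RNA unit and holds a whole 5.8S ribosomal RNA gene. Its stretch around that gene (TAIR10.1, chr3:14199733-14199936, plus strand, from RefSeq) is shown because the member with the largest difference of the set contains it. Which part of the transcript the reads came from was not tested. The capitals mark the 5.8S gene AT3G41979.
AT3G06355: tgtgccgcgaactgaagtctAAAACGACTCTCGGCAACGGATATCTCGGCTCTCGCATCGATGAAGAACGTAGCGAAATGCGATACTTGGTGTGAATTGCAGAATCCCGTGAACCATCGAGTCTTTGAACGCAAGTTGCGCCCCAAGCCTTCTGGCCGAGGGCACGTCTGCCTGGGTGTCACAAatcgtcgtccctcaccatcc

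Members were low in level and few of their classes reached the limit. Of the antisense_lncRNA rows 176 of 1037 did so (17%), of the lnc_RNA rows 43 of 2444 (1.76%) and of the antisense_RNA rows 2 of 78 (2.56%), whereas 67.4% of mRNA rows averaged at least 1 RPKM. The median member was at 2.29 RPKM and 1.177 kb long, with lengths between 0.185 and 6.791 kb, and the median over all genes tested was 10.2 RPKM. Its exons were 40.9% G and C at the median, and 113 members had a single exon block. Just inside the limit lay AT2G05812, AT2G07305 and AT1G08293, each at 1.01 RPKM. Just outside lay AT4G26488 and AT1G07513 at 0.995 RPKM and AT5G06385 at 0.993 RPKM. Of the members, 18 averaged under 1 RPKM in Col-0 and 8 under 1 RPKM in the RNAi line, so these passed through the other group alone.

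Of the 221 transcripts, 37 were higher and 39 were lower in sqtl1 RNAi seedlings at an adjusted p under 0.05 in limma, and 145 passed in neither direction. This was 34.4% of the members, against 52.6% of the 19458 genes tested, of which 25.2% were higher and 27.5% lower. With no filter on low values before the fit, 24.4% of the members and 25.5% of all 38194 genes in the table were called. These shares are not alike, since all genes then included rows under 1 RPKM and the members did not. Of the 184 members between 1 and 5 RPKM, 28 were higher and 37 lower, 35.3% of them, whereas 45.9% of the 5525 genes in that range were called, 21.6% higher and 24.3% lower. Of the 37 members at 5 RPKM or more, 9 were higher and 2 lower, 29.7%, against 55.3% of genes at that level, of which 26.6% were higher and 28.7% lower. The median log2 difference was -0.012 over the members and -0.008 over all genes tested. The ranges of the 2 groups were apart for 110 members, among them all 76 that were called, against 64.1% of all genes tested. The count of higher members was 21 without RNAi replicate 2 and 23 without Col-0 replicate 2, and that of lower members 25, 25 and 24 without Col-0 replicate 1, 2 or 3. Log2 differences are of log2(RPKM + 1), so the change of a low transcript appears smaller than its ratio.

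Large differences were few among the members, as they were among all genes. A difference of at least 1 log2 unit was called upward for 8 of 221 members and for 653 of 19458 genes (3.36%). Downward it was called for 3 of 221 members and for 634 of 19458 genes (3.26%). Among the 8, AT2G05914, AT3G05955, AT2G07213 and AT1G06327 averaged under 1 RPKM in Col-0 and so met the limit through the RNAi libraries. By class, 10 lnc_RNA members were higher and 7 lower of 43, and 26 antisense_lncRNA members were higher and 32 lower of 176. Of the 2 antisense_RNA members 1 was higher. The chromosomes differed in the share called, from 21.2% of 33 members on chromosome 4 to 47.4% of 38 on chromosome 2, and this was not tested.

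**Figure D1:**
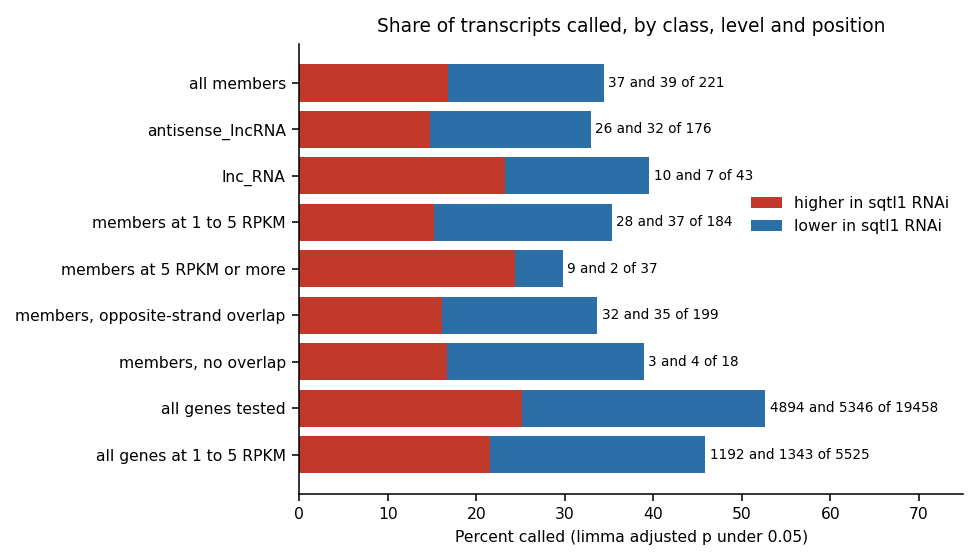
Percent of transcripts called (horizontal axis), split into higher and lower in sqtl1 RNAi against Col-0, for classes, levels and positions of members and for all genes; labels give the number higher and lower of the total. The bar of all members ends at 34.4% and that of all genes tested at 52.6%.

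**Figure D2:**
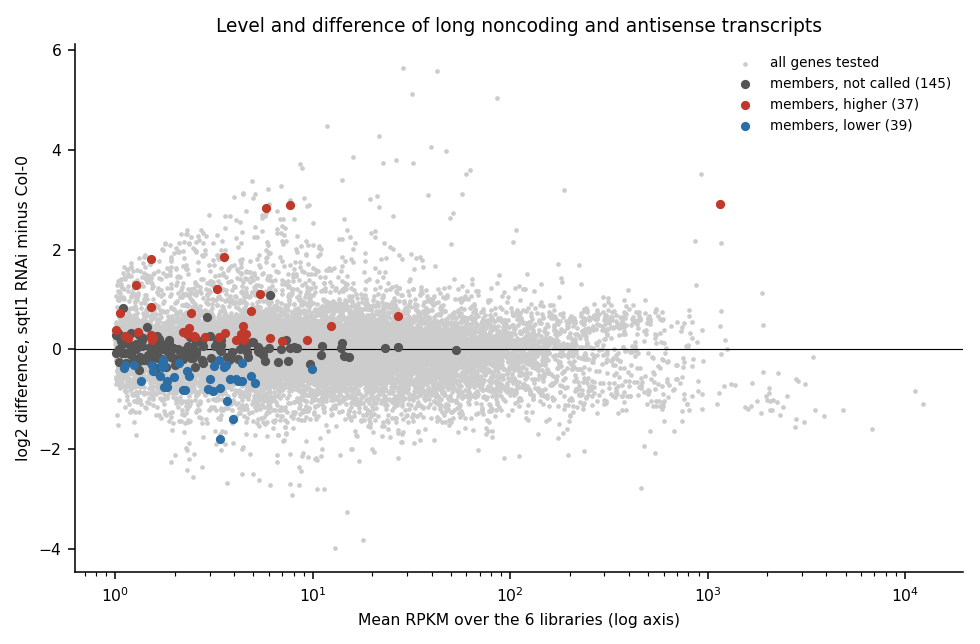
Mean RPKM over the 6 libraries (log axis) against the log2 difference, sqtl1 RNAi minus Col-0, for all genes tested (grey) and members (coloured by call). Most members lie at the low end, and AT3G06355 stands alone at 1157 RPKM.

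The ribosomal transcript AT3G06355 had 1873, 2069 and 2193 RPKM in sqtl1 RNAi replicates 1 to 3, against 265, 266 and 276 RPKM in Col-0 replicates 1 to 3. All 3 RNAi libraries lay far above all 3 Col-0 libraries. The ratio of means was 7.6 and the log2 difference 2.92 (SE 0.09, limma adjusted p = 2.57e-05). The transcript (TAIR10.1, chromosome 3, 14199575 to 14200076, plus strand, 502 bases) starts 90 bases after the 18S ribosomal RNA gene AT3G41768 and ends 138 bases before AT3G06365. It holds 178 bases before and 160 after the 164 bases of the 5.8S gene. Ribosomal RNA is copied from many repeats, of which the genome assembly holds few. The 5.8S stretch in capitals above occurs 2 times in TAIR10.1, with 0 differing bases between AT3G41979 and the copy AT2G01020 on chromosome 2 (5782 to 5945). The stretches of AT3G06355 before and after the 5.8S gene each occur 1 time. The deposited multiple-mapping ratio was 0.962 for AT3G06355.

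Other rows of the ribosomal unit were also higher, by different amounts. The 5.8S copy AT2G01020 was at 1704 ± 63.9 RPKM in RNAi seedlings and 147 ± 20.4 RPKM in Col-0 (SD, n = 3 each), a log2 difference of 3.53 (limma adjusted p = 2.57e-05), with a multiple-mapping ratio of 0.975. The 5.8S gene inside AT3G06355 was listed at 0.03 RPKM in the RNAi libraries and at 0.03 to 0.04 in Col-0. The 18S gene AT3G41768 averaged 2613 ± 544 RPKM in RNAi and 1181 ± 74.7 RPKM in Col-0 seedlings (SD, n = 3 each), a log2 difference of 1.13 (limma adjusted p = 0.00212). AT3G06365, annotated as a transcript region after the 5.8S gene, differed by 0.49 (limma adjusted p = 0.0269), and without Col-0 replicate 2 its limma adjusted p was 0.106. It also did not pass without Col-0 replicate 1 (0.0845), Col-0 replicate 3 (0.0746) or RNAi replicate 2 (0.081), or with no filter on low values (0.3, all limma adjusted p). Ribosomal RNA lacks the poly(A) tail of messengers. The share of the library held by AT3G06355 was 0.101% to 0.112% in RNAi and 0.0124% to 0.0132% in Col-0 libraries.

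A second member, AT3G06325 (chromosome 3, 14196558 to 14196865, plus strand), lies 811 bases before the 18S gene. It had 2.23, 2.12 and 2.36 RPKM in the RNAi libraries, against 0.75, 0.56 and 1.10 RPKM in the Col-0 libraries. The RNAi values were close together and all above Col-0, with a log2 difference of 0.85 (limma adjusted p = 0.00177). Rows outside the set also differed. The primary transcript of MIR5642a (chromosome 3, 14196774 to 14197147, plus strand) overlaps AT3G06325 on the same strand. It differed by 1.19 log2 units (limma adjusted p = 0.000598), and whether these rows share reads was not tested. The noncoding RNA AT3G41761 differed by 1.14 log2 units (limma adjusted p = 0.0019). The gene opposite AT3G06325, AT3G41762, stayed at or under 0.02 RPKM in every library.

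**Figure D3:**
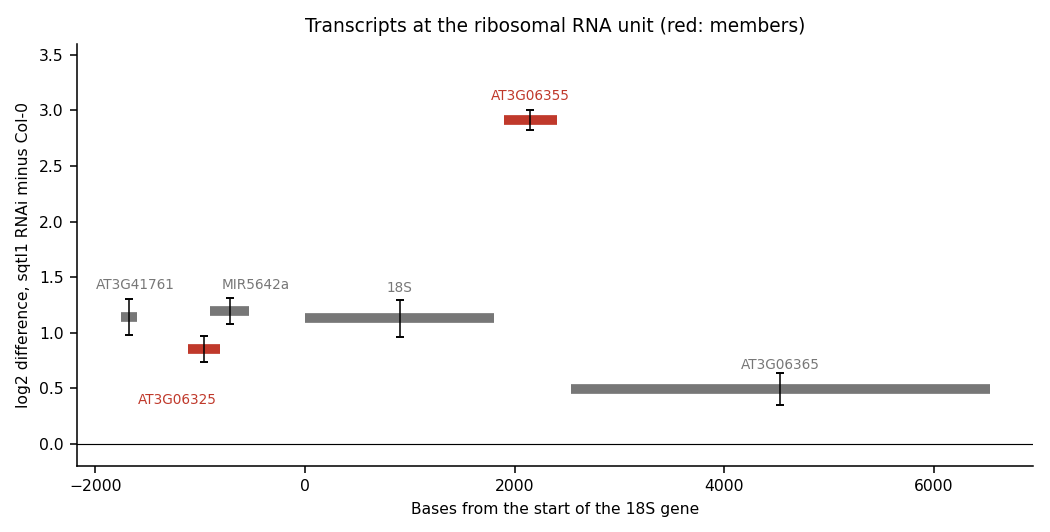
Log2 difference, sqtl1 RNAi minus Col-0 (vertical axis, error bars are SE), of transcripts at the ribosomal RNA unit by distance in bases from the start of the 18S gene (horizontal axis); bars span each transcript and members are red. AT3G06355 stands at 2.92, the 18S gene at 1.13 and AT3G06365 at 0.49.

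Outside the ribosomal unit, log2 differences of the named increases ran up to 2.89. The 12 largest increases and the 12 largest decreases were taken from calls with no overlap between the groups. That their groups stood apart was thus set by the rule. Among the 12 largest increases, AT2G05914, AT3G05955, AT2G07213, AT1G06327, AT1G06587 and AT3G06325 averaged under 1 RPKM in Col-0 and so met the limit through the RNAi libraries, which had to be higher. Of the 18 members of that kind 9 were higher and 0 lower, and of the 195 with at least 1 RPKM on average in each group 28 were higher and 35 lower. AT1G07483 (chromosome 1, 17837968 to 17838579, minus strand), which overlaps no other gene, had 17.4, 14.5 and 11.0 RPKM in the RNAi libraries and 0.53, 1.35 and 1.31 RPKM in the Col-0 libraries. The groups did not overlap, and RNAi replicate 3 lay nearest to Col-0. The ratio of means was 13.4 and the log2 difference 2.89 (SE 0.22, limma adjusted p = 0.000283). Its nearest neighbour AT1G48280, a hydroxyproline-rich glycoprotein family gene on the opposite strand, went the other way, with 2.58 ± 0.325 RPKM in RNAi and 4.80 ± 0.636 RPKM in Col-0 seedlings (SD, n = 3 each, log2 difference -0.70, limma adjusted p = 0.00249).

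AT2G05914 (chromosome 2, 2263124 to 2264543, minus strand) had 10.01, 13.2 and 9.61 RPKM in the RNAi libraries, against 0.55, 0.68 and 0.76 RPKM in the Col-0 libraries. Every RNAi value was far above every Col-0 value, with a ratio of means of 16.5 and a log2 difference of 2.83 (SE 0.12, limma adjusted p = 7.97e-05). It overlaps the protein-coding gene AT2G05915 on the opposite strand over 24.7% of its exon bases. AT2G05915 was at 0.74, 0.58 and 0.24 RPKM in RNAi and 0.08, 0.02 and 0.02 RPKM in Col-0 libraries, below the level that was tested.

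AT3G05955 (chromosome 3, 11586005 to 11586548, minus strand) overlaps no other gene and had 7.07, 5.90 and 5.44 RPKM in the RNAi libraries, against 0.91, 1.31 and 0.69 RPKM in the Col-0 libraries. The groups stood apart by more than the spread within either, with a log2 difference of 1.86 (SE 0.14, limma adjusted p = 0.000276). AT2G07213 (chromosome 2, 2996582 to 2998054, plus strand) had 4.53, 2.69 and 1.62 RPKM in RNAi and 0.09, 0.07 and 0.07 RPKM in Col-0 libraries. The RNAi libraries differed widely among themselves, all above Col-0, where the values rest on an estimated 5.4, 3.4 and 4.4 reads. The log2 difference was 1.81 (limma adjusted p = 0.00179). AT1G06327 had 2.78, 2.73 and 1.24 RPKM in RNAi and 0.19, 0.44 and 0.23 RPKM in Col-0 libraries, a log2 difference of 1.30 (limma adjusted p = 0.00329). Its Col-0 values rest on an estimated 1.7, 3.3 and 2.2 reads, and that of RNAi replicate 3 on 11.4.

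The other named increases were smaller, with log2 differences between 0.73 and 1.21. AT4G31398 had 4.13, 4.77 and 5.94 RPKM in RNAi and 1.33, 1.55 and 1.82 RPKM in Col-0 libraries, with no overlap (log2 difference 1.21, limma adjusted p = 0.000759). It runs opposite CTF7, which encodes an acetyltransferase of sister chromatid cohesion, over 63.3% of its exon bases. CTF7 was at 1.72 ± 0.15 RPKM in RNAi and 1.84 ± 0.124 RPKM in Col-0 seedlings (SD, n = 3 each) and passed in neither direction. The neighbouring protein-coding gene AT4G31405, on the strand of AT4G31398, differed by 1.09 log2 units (limma adjusted p = 0.000151). AT5G08445, which lies wholly opposite AT5G56220, had 6.55, 7.96 and 8.67 RPKM in RNAi and 3.09, 2.35 and 3.69 RPKM in Col-0 libraries (log2 difference 1.12, limma adjusted p = 0.00138). AT5G56220 was higher as well, by 0.37 log2 units (limma adjusted p = 0.00905), so here both strands moved up. AT2G21187, AT1G06587 and AT2G05665 completed the group, and the gene opposite AT2G21187, AT2G21185, passed in neither direction.

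**Figure D4:**
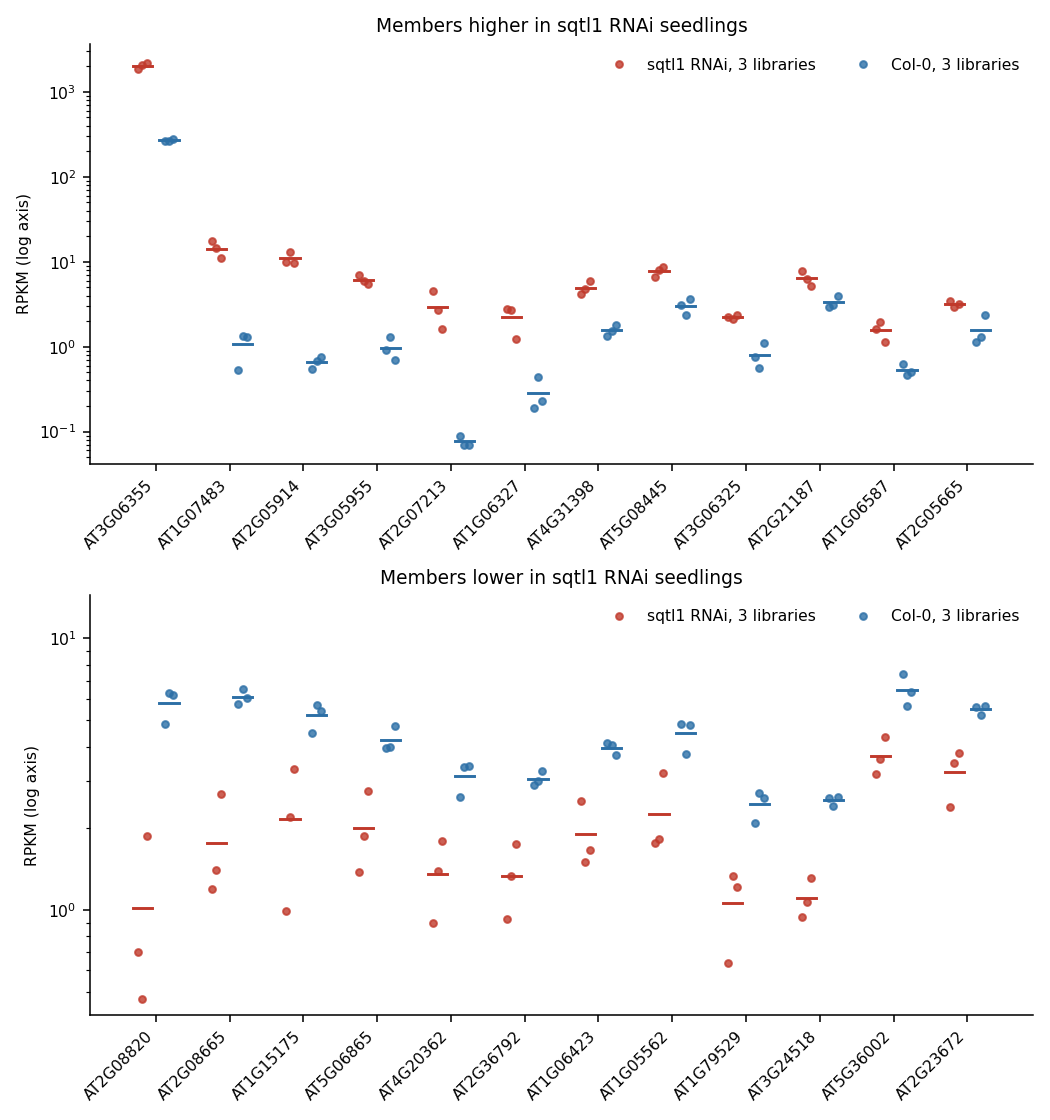
RPKM on a log axis for each library of the 12 members with the largest increase (upper panel) and the 12 with the largest decrease (lower panel); points are libraries, lines are means of 3, and sqtl1 RNAi stands left of Col-0. The groups do not overlap for any of the 24, as the rule that named them requires.

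The largest decreases, with log2 differences between -1.80 and -0.64, included AT2G08820 (chromosome 2, 15403144 to 15403901, minus strand). It had 0.70, 0.47 and 1.88 RPKM in the RNAi libraries, against 4.84, 6.32 and 6.18 RPKM in the Col-0 libraries. RNAi replicate 3 was the highest of its group and still far below Col-0, and the log2 difference was -1.80 (SE 0.25, limma adjusted p = 0.00174). The noncoding transcript on its other strand, AT2G08825, was at 0.02 RPKM in every library.

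AT2G08665 (chromosome 2, 14522522 to 14523568, plus strand) had 1.20, 1.40 and 2.68 RPKM in RNAi and 5.72, 6.49 and 6.04 RPKM in Col-0 libraries. The groups did not overlap, and the log2 difference was -1.40 (SE 0.19, limma adjusted p = 0.00162). It covers LHB1B2, a light-harvesting chlorophyll a/b protein gene of photosystem II, with 99.8% of its exon bases. LHB1B2 had 2228, 3010 and 5466 RPKM in RNAi and 10364, 9604 and 10094 RPKM in Col-0 libraries, a log2 difference of -1.59 (limma adjusted p = 0.00775). The difference of LHB1B2 was -0.45 after quantile normalization, and it did not pass there (limma adjusted p = 0.136) or with no filter on low values (0.485). The order of the RNAi libraries was the same on both strands, and the member was at 0.0577% of the level of LHB1B2. The labels do not say whether counting used strand, and the part of reads from the other strand in the member's value was not tested.

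Other lower members lay opposite genes that were higher. AT1G15175 had 0.99, 2.2 and 3.31 RPKM in RNAi and 4.50, 5.71 and 5.43 RPKM in Col-0 libraries, with a log2 difference of -1.04 (limma adjusted p = 0.0172). Its call was lost when Col-0 replicate 2 (limma adjusted p = 0.0606) or Col-0 replicate 3 (0.0585) was left out. It overlaps the MATE efflux gene AT1G15170 (higher by 0.30 log2 units, limma adjusted p = 0.00953) over only 18.4% of its exon bases. The MATE efflux gene AT1G15180, 151 bases away on the opposite strand, was lower by 0.32 log2 units (limma adjusted p = 0.0394). AT1G15180 did not pass without any library but RNAi replicate 3 (limma adjusted p 0.076 to 0.125) or with no filter (0.116). AT2G36792 had 0.93, 1.33 and 1.75 RPKM in RNAi and 2.89, 2.99 and 3.25 RPKM in Col-0 libraries, a log2 difference of -0.81 (limma adjusted p = 0.00317). Its opposite gene UGT73C6, a glucosyltransferase gene, went the other way, with 5.49, 3.47 and 1.40 RPKM in RNAi and 0.64, 1.15 and 1.06 RPKM in Col-0 libraries. The RNAi values of UGT73C6 spread widely, and its limma adjusted p of 0.0361 was between 0.0521 and 0.114 when any library but RNAi replicate 3 was left out, and 0.126 with no filter. AT5G06865, opposite PGIP1, a polygalacturonase inhibitor gene of defence, had 1.38, 1.88 and 2.74 RPKM in RNAi and 3.94, 4.0 and 4.77 RPKM in Col-0 libraries. PGIP1 was higher by 0.34 log2 units (limma adjusted p = 0.0163) but not past the threshold without Col-0 replicate 1 (0.0529) or Col-0 replicate 3 (0.0545), or with no filter (0.053).

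Further lower members lay opposite genes that were lower too. AT4G20362 overlaps RABE1b, the gene of a chloroplast elongation factor, and fell by 0.82 log2 units (limma adjusted p = 0.00568) beside a decrease of RABE1b by 0.34. AT2G23672 overlaps YCF37, a gene of photosystem I assembly, and fell by 0.64 (limma adjusted p = 0.00733) beside a decrease of YCF37 by 0.60 (limma adjusted p = 0.003). AT1G05562 overlaps UGT75B1, another glucosyltransferase gene, and AT1G79529 overlaps GAPCP-1, a plastid glyceraldehyde-3-phosphate dehydrogenase gene. RABE1b did not pass without Col-0 replicate 1, Col-0 replicate 2 or RNAi replicate 2 (limma adjusted p up to 0.0586). UGT75B1 did not pass without any library but RNAi replicate 1 (up to 0.13 in limma), and GAPCP-1 did not without Col-0 replicate 2 or 3 or RNAi replicate 2 or 3 (up to 0.131 in limma). With no filter the limma adjusted p was 0.133 for UGT75B1 and 0.109 for GAPCP-1, and after quantile normalization it was 0.0544 for RABE1b and 0.109 for GAPCP-1. AT3G24518, opposite the heat shock factor gene HSFC1, had 0.94, 1.07 and 1.31 RPKM in RNAi and 2.59, 2.41 and 2.61 RPKM in Col-0 libraries (log2 difference -0.75, limma adjusted p = 0.000941), whereas HSFC1 did not pass. AT1G06423 and AT5G36002 lay opposite genes at under 1 RPKM in every library, which were not tested.

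Of the 6 members with the highest level, AT3G06355 and AT2G24592 were called. AT2G24592 overlaps no other gene and had 35.2, 34.1 and 31.1 RPKM in RNAi and 19.96, 21.3 and 20.7 RPKM in Col-0 libraries, a log2 difference of 0.67 (SE 0.06, limma adjusted p = 0.000465). The other 4 passed in neither direction: AT4G38932, which overlaps no gene and lies 34 bases from AT4G38930, averaged 53.6 ± 9.41 RPKM in RNAi and 53.2 ± 0.836 RPKM in Col-0 seedlings (SD, n = 3 each). AT2G26355, AT4G01593 and AT1G29357 differed by 0.04, 0.02 and -0.15 log2 units. For AT1G29357 the groups did not overlap, although its limma adjusted p was 0.122.

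Most members lie opposite another gene. A gene on the opposite strand overlapped 199 members, for 177 of which it was protein coding, 4 members overlapped a gene on their own strand only and 18 overlapped none. Of those with an opposite-strand gene 32 were higher and 35 lower (33.7% called), and of those with no overlap 3 were higher and 4 lower (38.9%). Of all genes tested 52.6% were called. Of the 147 members with at least 0.5 of their exon bases opposite the partner's exons, 30 were at more than 10 times the partner's level, 21 at less than 0.1 of it, and 96 lay between.

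Called pairs went in all 4 combinations of direction. Of 120 partners that could be tested, 26 were higher and 41 lower, where 25.2% of all genes tested were higher and 27.5% lower. With so many genes called, pairs of unlinked genes would also fall in all 4 combinations. Whether the counts below differ from such pairs was not tested. Both transcripts were called in 26 pairs: 4 pairs were both higher, 13 both lower, 3 had the member higher and the partner lower, and 6 the member lower and the partner higher. In the same order these counts were 3, 10, 2 and 6 after quantile normalization and 2, 5, 2 and 2 with no filter on low values. A further 16 members were called beside a partner that did not pass, and 41 partners beside a member that did not. Across the 120 pairs, which share libraries, the log2 differences had a Pearson r of 0.05. Over the 5 pairs with the member under 2% of its partner's level r was 0.61, and over the other 115 it was -0.04. Over the 14 pairs with the member under 5% r was 0.24, with 7 of the 14 in the same direction. The 5 under 2% were the transcripts opposite LHB1B2, RABE1b, XYL4, CWLP and NdhS. Their log2 differences were -1.40, -0.82, -0.37, 0.19 and 0.25, beside -1.59, -0.34, -0.44, 0.31 and -0.94 for the partners in that order. The r of 0.61 leans on the LHB1B2 pair, which had the most negative difference on both strands.

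Some pairs were picked after their values were seen. AT5G01215 had 3.34, 3.76 and 4.20 RPKM in RNAi and 5.89, 6.02 and 5.79 RPKM in Col-0 libraries, while its opposite gene AT5G01210 had 62.3, 86.2 and 81.5 RPKM in RNAi and 35.1, 32.3 and 29.7 RPKM in Col-0. The strands differed in direction, by -0.54 and 1.21 log2 units (limma adjusted p = 0.00187 and 0.000782). AT2G37362, opposite the root suberin transporter gene ABCG2, was lower by only a little, with a log2 difference of -0.21 (limma adjusted p = 0.0486, between 0.0586 and 0.15 without any library but RNAi replicate 3, and 0.095 with no filter), whereas ABCG2 was at -1.33 (limma adjusted p = 0.000705). A run of 3 neighbouring members opposite the dynamin-related loci DRP4D, DRP4A and DRP4B were each higher by a small amount: AT1G60505, AT1G60525 and AT1G60545 with log2 differences of 0.24, 0.16 and 0.19 (limma adjusted p = 0.0127, 0.0249 and 0.0236). The genes on their other strands were under 1 RPKM in every library. None of the 3 passed without Col-0 replicate 2 (limma adjusted p = 0.0535, 0.0858 and 0.0791) or without RNAi replicate 2 (0.0524, 0.093 and 0.0711). Col-0 replicate 1 decided the calls of AT1G60525 and AT1G60545 (0.0646 and 0.0819 without it), and Col-0 replicate 3 those of AT1G60505 and AT1G60525 (0.0536 and 0.0843).

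**Figure D5:**
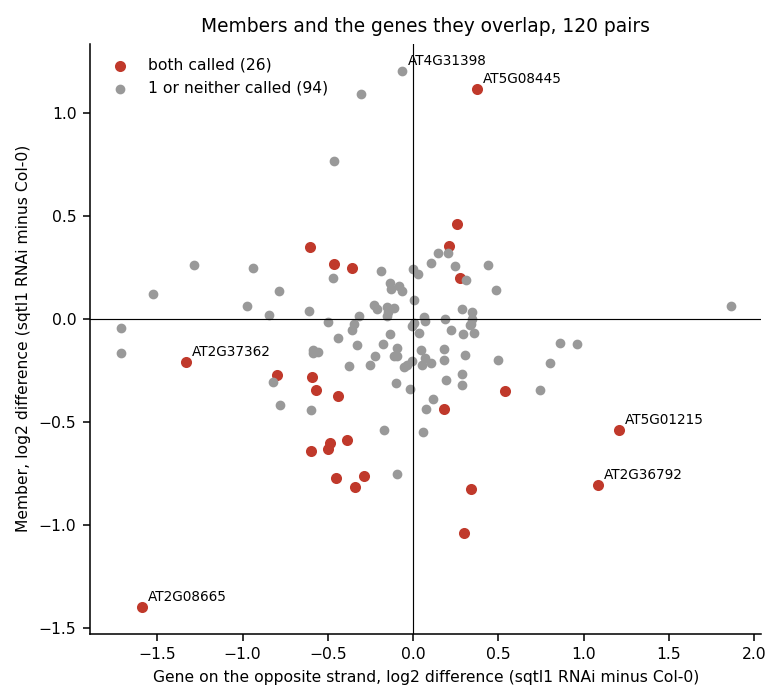
Log2 difference, sqtl1 RNAi minus Col-0, of the gene on the opposite strand (horizontal axis) against that of the member (vertical axis) for the 120 pairs in which both were tested; red points have both called. Red points lie in all 4 quadrants, and Pearson r was 0.05.

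The RNAi libraries were not equally far from Col-0. Among the 37 higher members, RNAi replicate 3 was the nearest to Col-0 for 17 (45.9%), and among the 39 lower members for 24 (61.5%), against 68.8% and 64.8% of the genes called over the whole table. The members other than AT3G06355 made up 0.113% to 0.122% of RNAi libraries and 0.106% to 0.107% of Col-0 libraries. Their summed level was 783, 822 and 864 RPKM in RNAi and 801, 793 and 805 RPKM in Col-0 libraries, so on that scale the groups overlapped. The multiple-mapping ratio was 0 for 152 members, at least 0.1 for 31 and at least 0.9 for 7. AT1G04183 was picked with its values in view and had a ratio of 0.995 and was listed at 6.31, 5.70 and 10.6 RPKM in RNAi and at 5.58, 7.96 and 0.00 RPKM in Col-0 libraries.

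Of the 7 known noncoding RNAs whose symbol and identifier matched in the annotation, 6 were tested and none is a member. IPS1 and AT4, which sequester the phosphate-starvation microRNA miR399, were lower, with 1.45 ± 1.80 RPKM in RNAi and 7.28 ± 0.705 RPKM in Col-0 seedlings for IPS1 (SD, n = 3 each, limma adjusted p = 0.0101). IPS1 had 0.48, 0.34 and 3.52 RPKM in the RNAi libraries, so replicate 3 stood well above the others. AT4 had 24.4, 32.0 and 78.2 RPKM in RNAi and 98.1, 111 and 114 RPKM in Col-0 libraries (limma adjusted p = 0.0223), and without Col-0 replicate 1, 2 or 3 or RNAi replicate 2 its limma adjusted p was 0.0587 to 0.0764. With no filter neither passed (limma adjusted p = 0.0524 for IPS1 and 0.0914 for AT4). The precursors TAS1A, TAS1B, TAS1C and TAS2 passed in neither direction. Of 13 list entries left out because their identifier did not carry the listed symbol in RefSeq, 7 were tested, 3 were higher and 1 lower. Of the 13, 9 had been entered as noncoding RNAs, of which 3 were tested and are given by locus only. AT3G17185 had 11.5, 11.1 and 10.8 RPKM in RNAi and 23.7, 25.5 and 24.9 RPKM in Col-0 libraries (log2 difference -1.08, limma adjusted p = 9.05e-05). AT2G34655 had 4.26, 5.6 and 3.93 RPKM in RNAi and 0.61, 0.80 and 0.53 RPKM in Col-0 libraries (log2 difference 1.76, limma adjusted p = 0.000267). AT1G67105 had 62.8, 60.2 and 32.6 RPKM in RNAi and 6.62, 24.97 and 13.4 RPKM in Col-0 libraries (log2 difference 1.84, limma adjusted p = 0.0158), with every RNAi value above every Col-0 value. Its call was lost without Col-0 replicate 3 (0.0504) or RNAi replicate 2 (0.0572) and with no filter (0.0716, all limma adjusted p). The other 6 were under the limit of 1 RPKM, among them the antisense_lncRNA rows AT5G01675 and AT1G69572 with means of 0.0767 and 0.992 RPKM over the 6 libraries.

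Genes linked to known noncoding RNAs as targets, neighbours or regulators were changed in both directions. Of 15 such genes 13 were tested, 4 were higher and 6 lower, and ARF2, PHR1 and SPX1 passed in neither direction, with a median log2 difference of -0.16. FLC, the floral repressor, was at 6.35 ± 0.881 RPKM in RNAi and 2.28 ± 0.0436 RPKM in Col-0 seedlings (SD, n = 3 each, limma adjusted p = 0.000355). PHO2, whose transcript miR399 targets, was at 30.0 ± 4.91 RPKM in RNAi and 19.0 ± 2.16 RPKM in Col-0 seedlings (SD, n = 3 each, limma adjusted p = 0.00888). The marneral cluster genes MRN1, CYP71A16 and CYP705A12 were lower, with log2 differences of -1.23, -0.96 and -0.55, and CYP705A12 did not pass with no filter (limma adjusted p = 0.0534). PID and ARF4 were higher and CDF1, CDF3 and ARF3 were lower, of which CDF1 did not pass without Col-0 replicate 1 or 2 or RNAi replicate 2 (limma adjusted p 0.0895 to 0.114) or with no filter (0.066). Of 31 genes of RNA decay, 3' end formation and silencing, 30 were tested, 10 were higher and 3 lower, with a median of 0.06. The exosome core subunit gene RRP41 was at 18.7 ± 2.48 RPKM in RNAi and 9.45 ± 0.239 RPKM in Col-0 seedlings (SD, n = 3 each, log2 difference 0.91, limma adjusted p = 0.000638), and the exosome helicase gene HEN2 differed by 0.37 (limma adjusted p = 0.00403). RRP44A, another exosome gene of the list, passed in neither direction (0.03, limma adjusted p = 0.616). The helicase gene MTR4 was higher by 0.19 (limma adjusted p = 0.0381), but only RNAi replicate 3 could be left out without losing the call. NRPE1, RDR6 and SGS3 were lower (-0.29, -0.24 and -0.22), and none passed without Col-0 replicate 1 (limma adjusted p = 0.0507, 0.0713 and 0.0764). In this list the number higher was 5, 5, 4 and 5 without Col-0 replicate 1, 2 or 3 or RNAi replicate 2. These 3 lists stand against 25.2% of all genes higher and 27.5% lower.

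Start regions of the members were read for motifs of stress responses and for other short motifs. Windows of 300 bases, from 250 before to 50 after the RefSeq start, were searched on both strands. The palindrome of CTT and AAG around any 7 bases, bound by the DNA-damage factor SOG1, was in 12.2% of members' windows, in 18.9% of the 37 higher and 15.4% of the 39 lower members, and in 11.5% of the 37896 windows of the table. The motif of CTTG, any 5 bases and CANG, known from mitochondrial dysfunction responses, was in 3.17% of members' windows, in 8.11% of the higher and 2.56% of the lower members, and in 2.27% of all windows. The G-box CACGTG was in 5.41% of higher members, 7.69% of lower members and 6.46% of all windows. In the same order the evening element AAAATATCT was in 0.0%, 0.0% and 2.49%. The GATA I-box core GATAAG was in 24.3%, 28.2% and 15.1%, and the MYB3R site AACGG in 27.0%, 20.5% and 24.5%. No share was tested against that of all windows. A match is no site of binding. Windows are shown for 2 higher members, chosen after the matches were known. AT3G05955 is the largest increase with a match, and AT2G08660 is the only called member with matches to both of these 2 patterns. Both are from RefSeq TAIR10.1, at chr3:11586499-11586798 (minus strand) and chr2:14514061-14514360 (plus strand), written 5' to 3' in the direction of the transcript, with the matches in capitals.
AT3G05955: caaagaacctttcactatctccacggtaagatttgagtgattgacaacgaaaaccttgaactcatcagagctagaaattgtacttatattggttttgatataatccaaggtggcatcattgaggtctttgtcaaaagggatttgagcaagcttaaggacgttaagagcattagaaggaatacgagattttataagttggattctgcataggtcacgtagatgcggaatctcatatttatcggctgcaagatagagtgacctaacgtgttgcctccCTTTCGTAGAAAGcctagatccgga
AT2G08660: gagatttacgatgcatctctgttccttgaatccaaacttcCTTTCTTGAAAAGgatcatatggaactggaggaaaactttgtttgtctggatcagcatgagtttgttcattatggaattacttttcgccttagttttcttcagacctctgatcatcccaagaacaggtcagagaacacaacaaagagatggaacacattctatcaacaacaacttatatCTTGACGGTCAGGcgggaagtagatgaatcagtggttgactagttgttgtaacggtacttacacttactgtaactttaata
In AT3G05955 the match starts at base 26 of the transcript. AT2G08660 lies opposite the aquaporin-like gene NIP2;1 and had 1.22, 1.24 and 1.49 RPKM in RNAi and 0.93, 0.93 and 0.87 RPKM in Col-0 libraries. It was under 1 RPKM in Col-0 and so met the limit through the RNAi libraries, which had to be higher. Its limma adjusted p was 0.0261, and 0.0508 to 0.0858 without any library but RNAi replicate 1. The call was also lost with the replicate block (limma adjusted p = 0.0685) and with a variance prior by estimated reads (0.0539).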

How the data were processed

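Expression is in RPKM, reads scaled by length and library size, in the table deposited by the authors for 6 libraries. The deposited table adds a length and a fraction, per the file headers a ratio of multiple mapping. Trimmomatic 0.39, Bowtie2 2.2.6 and the build TAIR10 are named, per the submitters' processing notes. The sources used here do not give the counting tool, the gene set or the use of strand. Of 38199 lines, 5 carried no gene and were left out. Low values lay on steps smaller than a read, offset by 0.25 of a read, on the scale that fit best (99.5% to 100.0% of values per library). From that scale, depths of 43.7 to 46.9 M reads for RNAi and 38.0 to 49.8 M for Col-0 libraries were estimated. These are estimates, reads may have been counted in fractions, and the unit may be a read pair.

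The test was limma 3.58.1 (R 4.3.3) on log2(RPKM + 1) over 19458 genes averaging 1 RPKM or more, with a variance prior that follows mean level and Benjamini-Hochberg adjustment over all of them. The limma step was tested on simulated data in which both groups had the same spread between replicates. That setting cannot speak for calls where the RNAi libraries spread more widely than Col-0. The labels call the replicates biological, and no batch is named. Same-numbered replicates did not deviate together (correlations of -0.064, 0.093 and 0.02), so there was no sign that the numbers pair libraries. With 3 libraries per group this cannot exclude a weak pairing.

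Positions, strands, symbols and sequences are from RefSeq TAIR10.1, in which 37898 of 38194 identifiers and all 221 members were found. Of 66 entries in the gene lists, 13 did not match their identifier there and were left out. The text names the 12 largest increases and decreases among called members whose groups do not overlap, the 6 members with the highest level, their overlapping genes and the members nearest the limit. The members and lists were chosen with earlier results of these data known.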

Additional observations from a re-analysis of the deposited data

How the results depend on the processing

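The counts of called members (37 higher, 39 lower) stayed within 1.5 times under another pseudocount, quantile normalization, median centring, a constant variance prior, the replicate block (28 higher, 29 lower) and a prior following estimated reads, an alternative chosen after seeing the data. With no filter on low values 25 were lower, and 24.4% of members and 25.5% of all genes were called, where all genes included rows under 1 RPKM. With a mean of at least 5 RPKM, 9 of 37 tested were higher and 2 lower. Among members that overlap no other gene, 3 were higher and 4 lower. Leaving out each library in turn gave 21 to 37 higher and 24 to 53 lower members: 21 higher without RNAi replicate 2, 23 without Col-0 replicate 2, and 24 to 25 lower without each Col-0 library in turn. Over all genes, the counts were 3495 to 5538 higher and 4011 to 6034 lower.

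Known noncoding RNAs: 0 lower with no filter, 1 lower at 5 RPKM, and 0 to 2 higher and 1 to 2 lower without a library. Genes linked to them: 2 higher at 5 RPKM, 4 higher and 5 to 8 lower without a library. Decay and silencing genes: 6 higher with the replicate block, 4 to 13 higher and 0 to 4 lower without a library. Of 29 named members 25 were called, and 22 of these kept the call under all their alternatives. AT2G05665, AT1G15175 and AT1G05562 lost it with no filter (limma adjusted p = 0.0518, 0.0743 and 0.053). None reversed. The cause was not tested. The depth behind a value is only estimated.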
